A study of Homo sapiens with 6 samples.

Results

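The MYC, MAX and MXD family is a set of 10 genes for transcription factors that meet on one shared partner, MAX. The members were MYC, MYCN, MYCL, MAX, MXD1, MXD3, MXD4, MXI1, MNT and MGA, taken by gene symbol from a table of 26485 symbols. All 10 were present and all 10 passed the filter on low counts, which left 16199 genes to test. RNA was sequenced from EndoC-βH1 cells, an established human line of pancreatic beta cells that was made with the SV40 large T antigen and telomerase. All 6 libraries came from cells transduced with lentiCRISPRv2, a lentiviral vector that carries Cas9 and an antibiotic resistance gene, and selected as stable lines. In the 3 libraries named Empty (genotype label WT) the vector held no guide, and in the 3 named sgZHX3-3 (genotype label ZHX3 KO) it held 1 guide against the first coding exon of ZHX3, a zinc-finger and homeobox repressor. The labels give no age, time or further treatment. They call the samples biological replicates 1 to 3 without saying whether these are separately made lines, so p-values may measure only the spread between cultures. An effect of this single guide or of line selection cannot be told apart from an effect of ZHX3.

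MYC proteins bind DNA only when paired with MAX through a helix-loop-helix leucine zipper, and as MYC-MAX pairs they activate genes of growth and division from the E-box sequence CACGTG. MXD proteins, MXI1 and MNT also pair with MAX, bind the same sequence and recruit the SIN3-HDAC corepressor, so that they oppose MYC. MGA is a large protein with both a T-box and a MAX-pairing domain, and it works in a variant Polycomb complex, PRC1.6. In beta cells MYC is known for driving proliferation and, when it is high for long, loss of mature function and cell death.

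Total counts were 45101454 to 61051884 per library. ZHX3 itself stood higher in the libraries labelled sgZHX3-3, at 167 to 183 CPM (counts per 1e+06 counted reads, after TMM scaling) against 101 to 110 CPM in Empty (log2 fold change 0.75, edgeR adjusted p = 1.62e-05). The RNA thus went against the knockout label, and every direction here rests on the labels alone. Editing need not lower an RNA, and protein was not analysed here. Beta cell markers were high, with INS at 5206 to 7118 CPM and CHGA at 23272 to 33206 CPM, while the glucagon gene GCG stayed at 0.135 to 0.403 CPM. Markers of other cell types were mixed. The acinar marker PRSS1 had at most 1 count in a library, but CPA1, a second acinar marker, was at 33.1 to 45.2 CPM and higher in sgZHX3-3 (0.31, edgeR adjusted p = 0.0145; without Empty 2 and 3, 0.17 and 0.413). The leukocyte marker PTPRC had at most 4 counts, but CD68, found in macrophages and in lysosomes of other cells, was at 12.3 to 21.1 CPM (0.30, adjusted p = 0.146; without Empty 2 and 3, 0.66 and 0.0440). The endothelial markers PECAM1 and VWF had at most 2 and 4 counts. Empty 1 stood apart from Empty 2 and 3 in 2 stress lists. The summed level of 10 genes of the NRF2 oxidative stress response was 1170 CPM in Empty 1, 1771 and 1860 CPM in Empty 2 and 3, and 789 to 919 CPM in sgZHX3-3. For 12 heat shock genes the sums were 4738, 6156 and 6620 CPM in Empty 1, 2 and 3 and 4517 to 5254 CPM in sgZHX3-3. Values of members and of the gene lists are therefore also given with Empty 2 and 3 left out. Any p-value from that fit assumes that the lone Empty library varies like the others. The share of all genes at an unadjusted p below 0.05 was not computed in any fit, so counts at that p have no background here.

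The DNA before the transcription starts is shown for the 3 members whose RNA passed the test, MYCN, MXD1 and MXI1, and around the E-box for the 2 members that carry one. Sequences are from RefSeq (GRCh38.p14), 5′ to 3′ on the gene's strand, and end 1 base before an annotated start, except the 30-base stretches for MXD4 and MNT. In MYCN (chr2:15940300-15940549, plus strand) the capitals mark 2 overlapping E2F-type matches, TTTGGCGC and, on the other strand, TTTCGCGC. In MXD1 (chr2:69914859-69915108, plus strand) they mark 2 CCAAT boxes, the sequence that NF-Y binds, and further upstream 1 match on the other strand to TGACNNNGC, the core of the NRF2 element. The window of the most upstream of the 3 listed MXI1 starts (chr10:110207355-110207604, plus strand) held none of the motifs searched, and so has no capitals. In MXD4 (chr4:2262330-2262359, minus strand) and MNT (chr17:2401236-2401265, minus strand) the capitals are the E-box.
MYCN: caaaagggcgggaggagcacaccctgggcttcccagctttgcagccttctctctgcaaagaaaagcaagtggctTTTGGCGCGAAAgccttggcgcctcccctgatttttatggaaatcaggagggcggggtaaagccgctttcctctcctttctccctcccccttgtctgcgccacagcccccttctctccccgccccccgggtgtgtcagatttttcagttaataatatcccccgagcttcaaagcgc
MXD1: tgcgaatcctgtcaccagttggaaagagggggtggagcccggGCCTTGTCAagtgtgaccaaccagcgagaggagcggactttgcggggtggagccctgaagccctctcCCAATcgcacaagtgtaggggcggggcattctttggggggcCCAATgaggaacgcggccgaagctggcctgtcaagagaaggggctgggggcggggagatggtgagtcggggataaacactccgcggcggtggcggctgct
MXI1: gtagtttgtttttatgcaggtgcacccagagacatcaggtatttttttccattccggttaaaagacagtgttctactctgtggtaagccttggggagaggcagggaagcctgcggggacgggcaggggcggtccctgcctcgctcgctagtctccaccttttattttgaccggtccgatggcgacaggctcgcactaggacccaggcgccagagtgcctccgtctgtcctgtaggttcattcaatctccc
MXD4: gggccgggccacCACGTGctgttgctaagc
MNT: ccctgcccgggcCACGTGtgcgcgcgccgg

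Of the 10 members, 9 had a window in the RefSeq table (MYC had none), with 14 windows in all because MXI1, MAX and MGA have several starts. CACGTG was found in the 250 bases before the start of MXD4 and MNT only, against 6.34% of all 35116 windows in the table. CCAAT was found in MXD1, MXD3, MXD4 and 1 of the 3 MGA windows, against 32% of all windows. The E2F-type letters, in either spelling and on either strand, were in the MYCN window and 1 MGA window, against 0.968% of all windows. TGACNNNGC was in MXD1 alone, against 10.9%. These matches describe letters in a window and say nothing about binding in these cells.

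**Figure D1:**
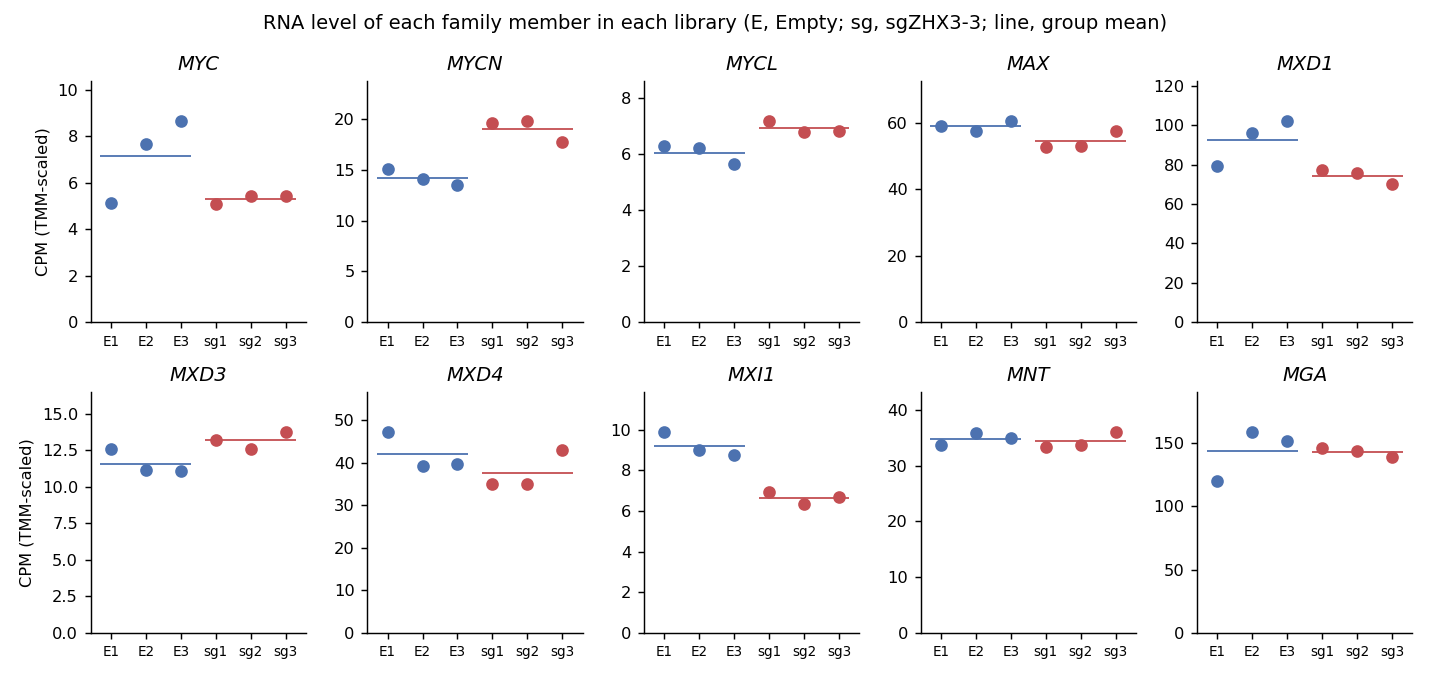
RNA level of the 10 members in CPM (y axis, starting at 0) in the 3 Empty (E1 to E3) and 3 sgZHX3-3 (sg1 to sg3) libraries; points are libraries and lines are group means. The groups are apart in MYCN (13.6 to 15.1 against 17.7 to 19.8 CPM) and MXI1 (8.74 to 9.90 against 6.36 to 6.70 CPM), while Empty 1 lies with the sgZHX3-3 libraries in MYC.

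In sgZHX3-3 libraries the RNA of 1 activator, MYCN, was higher and that of 2 repressors, MXI1 and MXD1, was lower. The change was 1.34-fold for MYCN, 1.38-fold downward for MXI1 and 1.24-fold downward for MXD1. The other 7 members did not pass an adjusted p of 0.05 (edgeR, over all genes). The 1 of 10 members higher stands beside 7.11% of all genes tested, and the 2 of 10 lower beside 4.98%. In 6 of 10 members (MYCN, MYCL, MAX, MXD1, MXD3 and MXI1) the groups did not overlap, beside 32% of all genes. Without Empty 1, 1 member was higher and 3 were lower, beside 10.9% and 9.14% of genes. Without Empty 2 and 3, 0 members were called by edgeR, beside 1.26% of genes higher and 0.24% lower (at an unadjusted p below 0.05, 2 members were higher and 2 lower). The median log2 fold change of the members was −0.07 and that of all genes −0.002.

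Among the activators, MYCN moved most clearly. MYCN, best known from neuroblastoma and from neuronal and other progenitor cells, lies on chromosome 2 (15940564 to 15947007, plus strand, GRCh38). It stood at 15.1, 14.1 and 13.6 CPM in Empty 1, 2 and 3 and at 19.6, 19.8 and 17.7 CPM in the sgZHX3-3 libraries. Every sgZHX3-3 library was above every Empty library, and Empty 1 was the highest of its group. The log2 fold change was 0.42 with a standard error of 0.0784 (95% interval 0.25 to 0.59, edgeR adjusted p = 0.00481). MYCN passed in each of the 6 fits that dropped a single library, and dropping Empty 2 and 3 together gave 0.34 (adjusted p = 0.190). The antisense gene MYCNOS shares 98 exon bases with MYCN (3.77%) and had 1 to 12 counts against 666 to 1069 for MYCN, so antisense reads could add little to its count.

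MYC itself, the founding member, on chromosome 8 (127735434 to 127741434, plus strand), did not pass. Its levels were 5.13, 7.67 and 8.66 CPM in Empty 1, 2 and 3 and 5.10, 5.43 and 5.43 CPM in the sgZHX3-3 libraries. Empty 1 thus lay inside the range of the sgZHX3-3 libraries and only Empty 2 and 3 were above it, the same libraries that were high in heat shock and NRF2 genes; the part of stress in this was not tested. MYC was at −0.43 on the log2 scale (SE 0.158, 95% interval −0.77 to −0.09, edgeR adjusted p = 0.0976). Without Empty 1 it was −0.61 and passed (adjusted p = 0.00194), and without Empty 2 and 3 it was 0.06 (adjusted p = 0.909). PVT1, the long noncoding RNA gene beside MYC, had 1 to 5 counts in each library and was not tested.

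MYCL, the third activator, on chromosome 1 (39895426 to 39902256, minus strand), was at 6.28, 6.22 and 5.62 CPM in Empty and 7.16, 6.78 and 6.82 CPM in sgZHX3-3. The groups did not overlap, but the difference of 0.19 (95% interval −0.02 to 0.41) did not pass (edgeR adjusted p = 0.221).

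MAX, the shared partner of the other members, lies on chromosome 14 (65006174 to 65102695, minus strand). It was at 59.1, 57.6 and 60.4 CPM in Empty and 52.8, 53.0 and 57.3 CPM in sgZHX3-3. The groups came close without overlapping, and the log2 fold change of −0.12 did not pass (95% interval −0.24 to 0.01, edgeR adjusted p = 0.200).

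**Figure D2:**
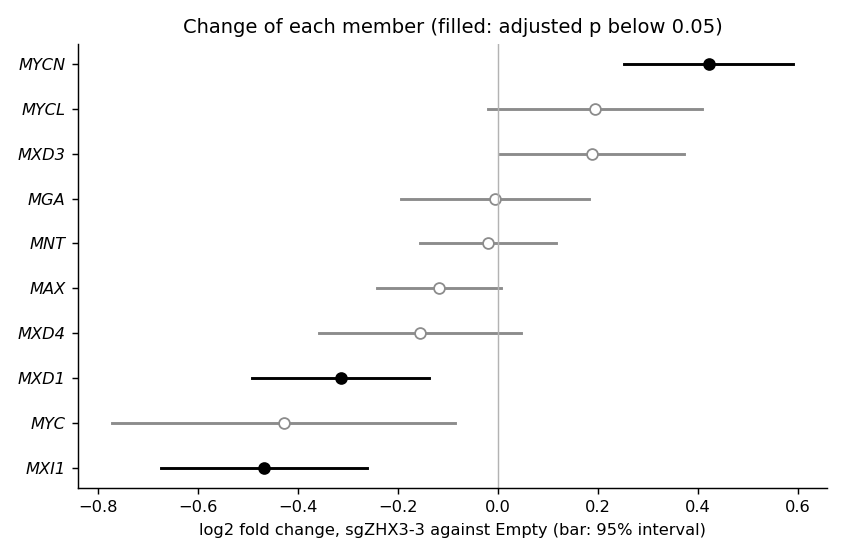
Log2 fold change of sgZHX3-3 against Empty (x axis) for each member (y axis), with 95% intervals from the edgeR fit; filled points have an adjusted p below 0.05. MYCN (0.42) is the only filled point above 0, and MXD1 (−0.31) and MXI1 (−0.47) are the filled points below it.

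Among the repressors, MXI1 showed the largest change. MXI1, also known as MXD2, an MXD repressor that rises in cells short of oxygen, lies on chromosome 10 (110207605 to 110287365, plus strand). It was at 9.90, 9.01 and 8.74 CPM in Empty 1, 2 and 3 and at 6.91, 6.36 and 6.70 CPM in sgZHX3-3. Each sgZHX3-3 library was below each Empty library, and Empty 1 was the farthest from them. The log2 fold change was −0.47 with a standard error of 0.0954 (95% interval −0.67 to −0.26, edgeR adjusted p = 0.00796). The fall was −0.57 with Empty 2 and 3 left out, a larger value that did not pass with 1 Empty library (adjusted p = 0.0660), and without sgZHX3-3 library 2 it was −0.44 (adjusted p = 0.0544). With any other single library left out MXI1 passed.

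MXD1, a repressor known for rising as cells leave the cycle and differentiate, lies on chromosome 2 (69897688 to 69942945, plus strand). It was at 79.4, 95.9 and 102 CPM in Empty 1, 2 and 3 and at 77.4, 75.5 and 70.3 CPM in sgZHX3-3. Empty 1 was only just above the highest sgZHX3-3 library, and Empty 2 and 3 made most of the difference. The log2 fold change was −0.31 with a standard error of 0.0816 (95% interval −0.49 to −0.14, edgeR adjusted p = 0.0266). Dropping Empty 2 (adjusted p = 0.109), Empty 3 (0.144), or the second (0.0891) or the third (0.107) sgZHX3-3 library ended the call, and dropping Empty 2 and 3 together gave −0.09 (0.649). As with MYC, the libraries high in MXD1 were those high in stress genes, and the part of stress was not tested. MXD1 shares 237 exon bases (3.73%) with SNRNP27 on the same strand, so its count is slightly uncertain.

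MXD3 and MXD4, the other MXD repressors, lay on either side of 0 and did not pass. MXD3, which unlike its relatives is known from dividing cells, lies on chromosome 5 (177301461 to 177312757, minus strand). It was at 12.6, 11.1 and 11.1 CPM in Empty and 13.2, 12.6 and 13.8 CPM in sgZHX3-3, a log2 fold change of 0.19 (95% interval 0.00 to 0.37, edgeR adjusted p = 0.167). Of its exon bases 22.5% are shared with PRELID1 on the other strand and 18.0% with RAB24 on the same strand, both of higher count, which makes the MXD3 count uncertain. MXD4, on chromosome 4 (2247432 to 2262294, minus strand), was at 47.3, 39.4 and 39.7 CPM in Empty and 35, 35.1 and 43.1 CPM in sgZHX3-3. The MXD4 groups overlapped, since the third sgZHX3-3 library was above Empty 2 and 3, and the log2 fold change of −0.16 did not pass (edgeR adjusted p = 0.302).

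MNT and MGA had the smallest differences of the family. MNT, the most widely expressed MAX-paired repressor, on chromosome 17 (2384060 to 2401118, minus strand), was at 33.8, 35.9 and 35 CPM in Empty and 33.4, 33.8 and 36.1 CPM in sgZHX3-3. The MNT groups overlapped throughout, at a log2 fold change of −0.02 (95% interval −0.16 to 0.12, edgeR adjusted p = 0.875). MGA, on chromosome 15 (41621224 to 41773081, plus strand), was at 120, 159 and 151 CPM in Empty and 146, 143 and 139 CPM in sgZHX3-3. Here Empty 1 was the lowest of all libraries and Empty 2 and 3 the highest, so the sgZHX3-3 libraries lay between them, at −0.01 (95% interval −0.19 to 0.18, edgeR adjusted p = 0.972). The sign of either value turned with the setting, and without Empty 2 and 3 MGA was at 0.26 (adjusted p = 0.133).

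**Figure D3:**
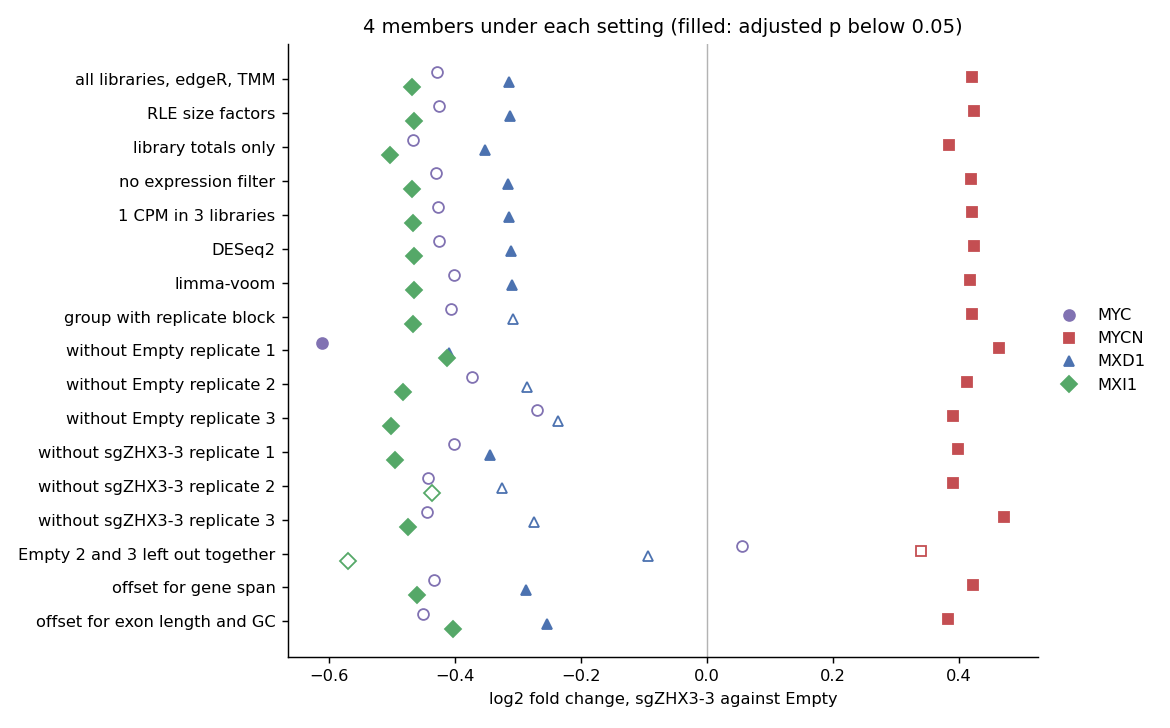
Log2 fold change of sgZHX3-3 against Empty (x axis) for MYC, MYCN, MXD1 and MXI1 under each scaling, filter, tool and set of libraries (y axis); filled symbols have an adjusted p below 0.05. MYCN stays between 0.34 and 0.47 and MXI1 between −0.57 and −0.40, while MXD1 and MYC shrink to −0.09 and 0.06 with Empty 2 and 3 left out.

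Per length, the family was led by MXD1 and MAX, and MYCN was the most abundant activator in each of the 6 libraries. Levels here are CPM per kilobase of annotated exon, since CPM cannot be compared between genes. In Empty the mean level was 14.6 ± 1.84 (SD, n = 3) for MXD1 and 13.3 ± 0.320 (SD, n = 3) for MAX, and in sgZHX3-3 it was 11.7 ± 0.581 and 12.3 ± 0.580. MXD1 and MAX overlapped within either group and changed places between the groups. MGA followed in both, at 8.11 in Empty and 8.08 in sgZHX3-3. MYCN was below MXD4 in Empty (5.47 against 5.96, with overlapping libraries) and above it in sgZHX3-3 (7.33 against 5.34, with no overlap). MNT was next in both groups, at 4.0 and 3.94. MYC and MXD3 also changed places, at 2.38 and 2.25 in Empty, where they overlapped, and 1.77 and 2.56 in sgZHX3-3, where they did not. The lowest in both groups were MXI1 (2.00 and 1.45) and MYCL (1.19 and 1.37), which overlapped in sgZHX3-3 and not in Empty. MGA did not overlap with MAX above it or with MYCN below it within either group, and MNT overlapped with neither MXD4 nor MXD3. Over all 6 libraries, MXD1 and MAX were above 74.6% and 74.0% of tested genes on this scale, and MYC above 31.1%. MYCN made 56.6% to 66.3% of the summed level of MYC, MYCN and MYCL in Empty and 68.4% to 70.8% in sgZHX3-3, ranges that do not overlap. MYC made 19.6%, 27.8% and 31.3% of that sum in Empty 1, 2 and 3 and 15.9% to 18.1% in sgZHX3-3. The changes of place above rest on all annotated exons as the length. With the longest transcript, means over the 6 libraries were 18.0 for MAX and 14.9 for MXD1, and 9.44 for MXD4 and 6.40 for MYCN. For MXD3 and MYC they were 5.43 and 2.64, and the order within each group was not compared on that length.

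The balance of the summed levels also differed between the groups. The sum of MXD1, MXD3, MXD4 and MXI1 was 23.8, 24.8 and 25.7 CPM per kilobase in Empty 1, 2 and 3 and 21.2, 20.7 and 21.3 in sgZHX3-3. For MYC, MYCN and MYCL it was 8.74, 9.20 and 9.21 in Empty and 10.7, 10.8 and 9.97 in sgZHX3-3. The ratio of the first sum to the second was 2.7 to 2.79 in the Empty libraries, with Empty 1 in the middle, and 1.92 to 2.13 in sgZHX3-3. The groups did not overlap in this ratio, and Empty 1 lay with Empty 2 and 3, unlike in MYC taken alone. With the longest transcript as the length the ratios were 3.21 to 3.41 in Empty and 2.43 to 2.74 in sgZHX3-3. These sums were formed after the values were seen and are given as a description, with no test; RNA ratios do not give protein ratios.

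**Figure D4:**
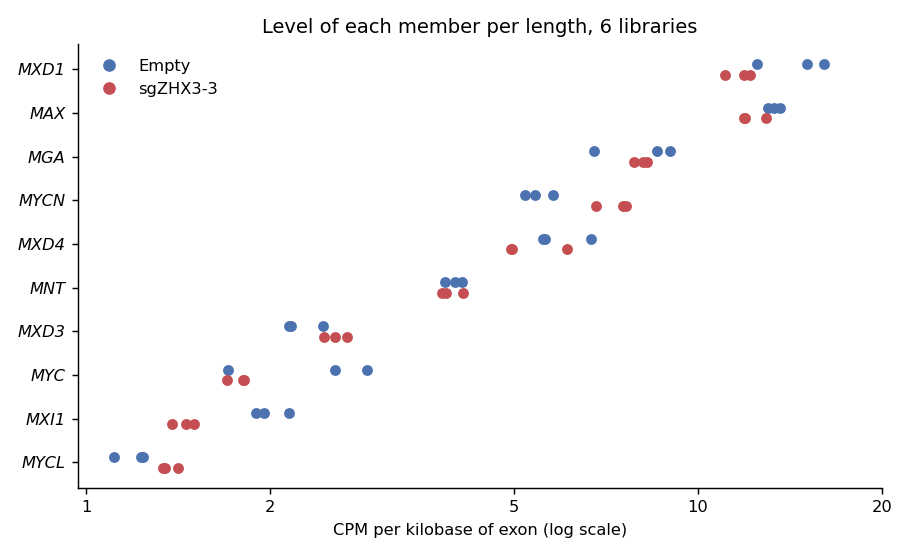
Level of each member in CPM per kilobase of exon (x axis, log scale) in the 6 libraries, Empty in blue and sgZHX3-3 in red, with members ordered by their mean over all 6. MXD1 and MAX lie between 11.1 and 16.1, and MYCL lies lowest at 1.11 to 1.41.

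The genes whose pattern over the 6 libraries was most like that of a called member were found by the root mean square difference of centred log2 CPM, among 14052 other genes of at least 1 CPM. Nearest to MYCN were GPM6B (0.0348), a neural membrane glycoprotein, TBL1X (0.0357), a subunit of the NCoR corepressor, and PCP4 (0.0381), a calmodulin-binding peptide. Their log2 fold changes were 0.40, 0.37 and 0.40, and all 3 were called, but none was called without Empty 2 and 3 (edgeR adjusted p = 0.169, 0.0638 and 0.149). Nearest to MXI1 were P4HA1 (0.0369), a collagen prolyl hydroxylase, LINC00622 (0.0411) and the ribonuclease RNASE4 (0.0419), at log2 fold changes of −0.45, −0.46 and −0.41; LINC00622 was not called (edgeR adjusted p = 0.103), and P4HA1 and RNASE4 were called also without Empty 2 and 3 (0.00982 and 0.0274). Nearest to MXD1 were ZNF443 (0.0243), the synaptonemal complex gene SYCE2 (0.0249) and C10orf35 (0.0257), at −0.33, −0.29 and −0.30, and of these only C10orf35 was called (edgeR adjusted p = 0.0364; without Empty 2 and 3, 0.619). With 6 libraries in 2 groups, such likeness is a description of shared levels.

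In the parallel MLX branch, MLX and its partners MLXIP and MLXIPL (MondoA and ChREBP) answer to glucose and compete for related DNA sites. Of its 5 tested genes 0 were higher and 2, both targets, were lower, beside 7.11% and 4.98% of all genes. The list median was −0.14, and also −0.14 with Empty 2 and 3 left out. MLX was at −0.14, MLXIP at 0.06 and MLXIPL at 0.08, and none of the 3 passed. TXNIP, their glucose-induced target that binds thioredoxin, was at 1.67, 1.79 and 2.24 CPM in Empty and 0.358, 0.341 and 0.199 CPM in sgZHX3-3. It fell by 2.69 on the log2 scale (edgeR adjusted p = 7.08e-05), also with Empty 2 and 3 left out (adjusted p = 0.0138). ARRDC4, an arrestin-like relative of TXNIP, was at −0.19 (adjusted p = 0.0461) and did not pass when Empty 2 (0.140), Empty 3 (0.175), the first (0.110) or second (0.197) sgZHX3-3 library, or Empty 2 and 3 together (0.325) were dropped.

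The counts of called cofactors were small and are set beside the 7.11% of all genes called higher and the 4.98% called lower. Of 14 tested coactivators and partners of MYC, 1 was higher and 0 lower, with a median of 0.08. By DESeq2 2 were higher and 0 lower, beside 1336 and 967 over all genes. By limma-voom 1 was higher and 0 lower, beside 1165 and 826. At an unadjusted edgeR p below 0.05, 4 were higher and 2 lower, and the share of all genes at that p was not computed. Without Empty 2 and 3 the list median was 0.03. In that fit TRRAP was at 0.35 and EP400 at 0.41, both of histone acetyltransferase complexes and named after their values were seen. The gene called higher by edgeR with all libraries was HCFC1, a chromatin adaptor that binds MYC. It was at 151, 165 and 162 CPM in Empty and 174, 184 and 201 CPM in sgZHX3-3 (0.22, edgeR adjusted p = 0.0347). HCFC1 did not pass once Empty 2 (0.0758), Empty 3 (0.104), the second (0.115) or the third (0.105) sgZHX3-3 library, or Empty 2 and 3 together (0.140) were dropped, or with library totals as the only scaling (0.0703). Of 17 tested genes of the SIN3-HDAC corepressor, which MXD proteins and MNT recruit, 0 were called by edgeR, DESeq2 or limma-voom. At an unadjusted edgeR p below 0.05, 1 was higher and 4 lower, and the median was −0.09. Without Empty 2 and 3 the median of these corepressor genes was −0.05. The subunits with the highest CPM, the histone-binding proteins RBBP4 and RBBP7, were at −0.10 and 0.04.

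Of 11 tested partners of MGA in PRC1.6, 0 were higher and 1 was lower, beside 7.11% and 4.98% of all genes. The list median was −0.08, and −0.1 with Empty 2 and 3 left out. By DESeq2 0 were higher and 2 lower, beside 1336 and 967 over all genes. By limma-voom 0 were higher and 2 lower, beside 1165 and 826. At an unadjusted edgeR p below 0.05, 0 were higher and 4 lower, and the share of all genes at that p was not computed. Without Empty 2 and 3, 0 were lower (0 also by unadjusted p). The gene called lower by edgeR with all libraries was E2F6, a repressive E2F. It was at 80.4, 83.5 and 87.1 CPM in Empty and 74.6, 69.8 and 67.9 CPM in sgZHX3-3 (−0.24, edgeR adjusted p = 0.0181). The E2F6 call ended on dropping Empty 2 (0.0723), Empty 3 (0.117), or the second (0.101) or the third (0.0501) sgZHX3-3 library, and dropping Empty 2 and 3 together gave −0.18 (0.343).

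Among 19 tested genes for the turnover of MYC and related proteins, 2 were higher and 1 lower, beside 7.11% and 4.98% of all genes, with a median of 0.00. Without Empty 2 and 3 the median was 0.07. The ubiquitin ligase subunit FBXO32 (atrogin-1), one of the ligases known to act on MYC, was at 8.40, 8.23 and 7.41 CPM in Empty and 5.86, 4.69 and 5.74 CPM in sgZHX3-3. The groups did not overlap and FBXO32 fell by 0.56 on the log2 scale (edgeR adjusted p = 0.00730). It did not pass without the second sgZHX3-3 library (0.0506) or without Empty 2 and 3 (−0.63, 0.0932). AURKA, the mitotic kinase that stabilises MYCN protein, was at 30.4, 24.2 and 22 CPM in Empty and 38.5, 36.6 and 33.2 CPM in sgZHX3-3. It rose by 0.50 (edgeR adjusted p = 0.00987) and passed in each fit that dropped a single library. Dropping Empty 2 and 3 together gave 0.25 (adjusted p = 0.313). HUWE1, a ligase for both MYC and MYCN, was at 0.27 (adjusted p = 0.0302). It passed with Empty 2 and 3 left out (0.45, adjusted p = 0.0151) but not without Empty 3 alone (0.0942), without the first (0.0506), second (0.119) or the third (0.0929) sgZHX3-3 library, or with library totals as the only scaling (0.0590).

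Genes used as readouts of MYC activity in growth were called in both directions, at shares near those of all genes. Of 56 tested nucleolar and biosynthesis genes, 3 were higher and 2 lower, beside 7.11% and 4.98% of all genes, 51 were not called, and the median was 0.01 beside −0.002 over all genes. GNL3 (nucleostemin), a nucleolar GTPase, was at 114, 121 and 125 CPM in Empty and 100, 101 and 94.5 CPM in sgZHX3-3 (−0.28, edgeR adjusted p = 0.00795), and did not pass without Empty 3 (0.0624). FBL (fibrillarin), the RNA methylase of the nucleolus, was at 0.24 (adjusted p = 0.0177), and UTP20 and RRP9, which process ribosomal RNA, were at 0.29 (0.0178) and 0.26 (0.0465). NIP7, which acts in ribosome assembly, was at −0.22 (0.0418). Of the 6 fits that dropped a single library, FBL did not pass in 3, UTP20 in 2, RRP9 in 6 and NIP7 in 5. Without Empty 1 the list had 2 higher and 10 lower, beside 10.9% and 9.14% of all genes, and without Empty 2 and 3 it had 0 of either (by unadjusted p, 4 higher and 2 lower).

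Cell cycle genes used as MYC targets were lower where they were called. Of 16 tested, 7 were lower and 0 higher, beside 4.98% and 7.11% of all genes, with a median of −0.21 against −0.002 for all genes. By DESeq2 9 were lower and 0 higher, beside 967 and 1336 over all genes. By limma-voom 7 were lower and 0 higher, beside 826 and 1165. At an unadjusted edgeR p below 0.05, 12 were lower and 0 higher, and the share of all genes at that p was not computed. E2F2, a transcription factor of S-phase entry, was at 23.4, 29.9 and 30.5 CPM in Empty 1, 2 and 3 and 18.8, 17.9 and 17.6 CPM in sgZHX3-3. It fell by 0.63 on the log2 scale (edgeR adjusted p = 0.00133). CCNE2 (cyclin E2) was at 47.8, 60.6 and 61.5 CPM in Empty and 38.0, 35 and 29 CPM in sgZHX3-3, at −0.74 (adjusted p = 0.00192). The replicative helicase subunit MCM4 (−0.33) and the phosphatase CDC25A (−0.42) were also lower. These 4 passed in each fit that dropped a single library, with Empty 1 nearest to the sgZHX3-3 libraries in each. E2F1 was at −0.22 (adjusted p = 0.0212) and did not pass in 4 of those 6 fits. With Empty 2 and 3 left out, 0 of the 16 passed (0 higher and 6 lower by unadjusted p), E2F2 was at −0.37 (adjusted p = 0.115) and the list median was −0.15. Dropping Empty 2, Empty 3 or the second sgZHX3-3 library left 4 genes of the list lower, beside 231, 184 and 211 over all genes. Dropping Empty 1 left 10, beside 9.14% of all genes. Empty 2 and 3 were the libraries high in stress genes, and the part of stress in these counts was not tested.

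Markers of dividing cells, fixed as a list beside these, gave 1 higher and 3 lower genes of 14 tested, beside 7.11% and 4.98% of all genes. The S-phase genes PCNA (−0.40, edgeR adjusted p = 0.00123), TYMS (−0.24, 0.0298) and RRM2 (−0.85, 0.0305) were lower. TYMS did not pass in 5 of the 6 fits that dropped a single library, nor RRM2 in 4 (without Empty 3, 0.155 and 0.0816). The mitotic cyclin CCNB1, at 28.8, 24.9 and 25.2 CPM in Empty and 37.9, 39.4 and 31.4 CPM in sgZHX3-3, was higher (0.46, 0.00630). Without Empty 2 and 3 the list median was −0.05, and with all libraries it was also −0.05. Without Empty 2 and 3, PCNA was at −0.33, TYMS at −0.11, RRM2 at −0.48 and CCNB1 at 0.33. MKI67, the Ki-67 antigen of cycling cells, was named after its value was seen. It was at 0.55 in that fit and at 0.10 with all libraries (edgeR adjusted p = 0.728). MKI67 was at 49.3 CPM in Empty 1, 76.3 and 75.8 CPM in Empty 2 and 3 and 68.3 to 75.4 CPM in sgZHX3-3. In these bulk samples, fewer cells in a phase and less RNA per cell cannot be told apart.

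**Figure D5:**
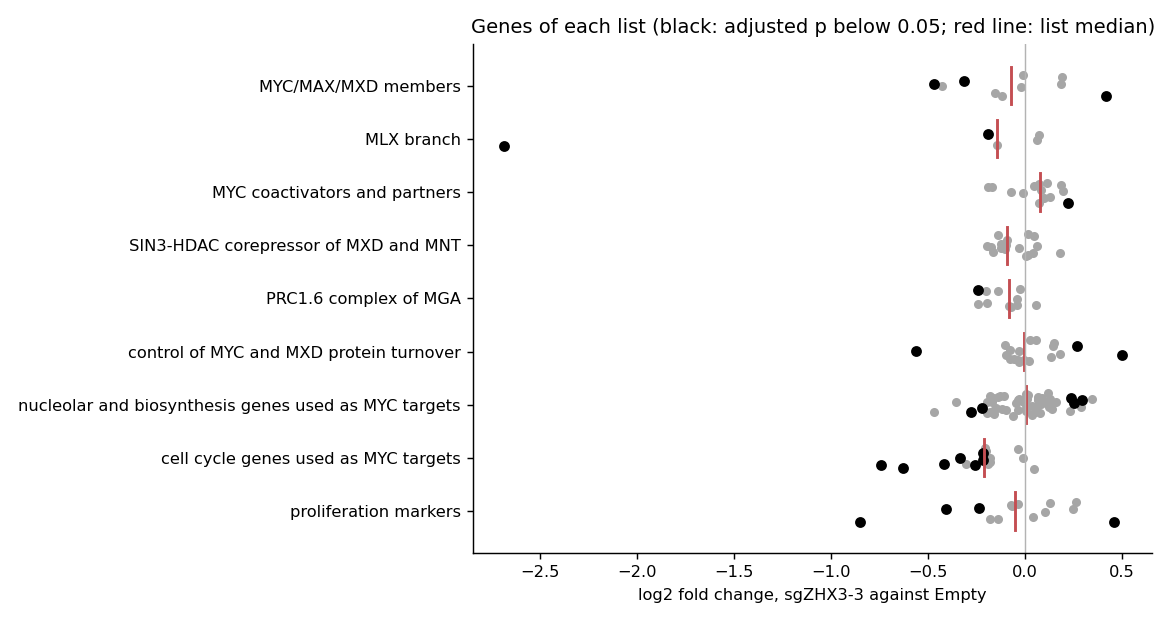
Log2 fold change of sgZHX3-3 against Empty (x axis) for the tested genes of the family, its cofactor and target lists and the proliferation markers (y axis); points are genes, black where the adjusted p is below 0.05, and red lines are list medians. The cell cycle list has 7 black points, all below 0, while the nucleolar list, with a median of 0.01, has 3 above and 2 below; the point near −2.7 is TXNIP.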

How the data were processed

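RNA of 6 libraries was measured by stranded RNA sequencing (NEBNext Ultra Directional), per the labels' protocols. The submitters' processing notes name STAR, featureCounts and hg38; the sources used here do not give versions, annotation, strand setting or how shared reads were handled. The authors deposited raw counts per gene symbol, and these whole-number counts were used without change.

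Genes were kept by filterByExpr (minimum count 10, minimum total 15). Libraries were scaled by TMM and compared between the 2 groups, with no covariate, by the quasi-likelihood test of edgeR in its robust form; p-values were Benjamini-Hochberg adjusted over 16199 genes and called at 0.05. CPM values use TMM library sizes, and replicates varied by a common biological coefficient of 6.91%. Positions, exon lengths and overlaps came from GENCODE 29, which held 90.0% of the symbols once. Motifs were searched in 250 bases before each RefSeq start.

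The members, gene lists and the naming rule were chosen with earlier results of these data known. The rule names all members, ZHX3, up to 5 called genes of each list by adjusted p (the 2 most abundant where none was called), and 3 genes most like each called member; MLX, MLXIP, MLXIPL and marker genes were named beside it. Of the proliferation, stress and marker lists, values are given where they touch a result. The beta cell markers had 6 of 8 genes higher (8 without Empty 1, 0 without Empty 2 and 3, where 5 had an unadjusted p below 0.05). Other markers of islet endocrine, duct and fibroblast cells did not pass in either direction, and the acinar gene CPA1 was higher. Of the stress lists, 9 of 10 tested NRF2 genes were lower (5 without Empty 2 and 3), and 1 of 11 heat shock genes (7 by DESeq2, 10 without Empty 1, 0 without Empty 2 and 3, where 4 had an unadjusted p below 0.05). By limma-voom 6 NRF2 genes and 0 heat shock genes were lower, beside 826 over all genes. Over all genes edgeR called 7.11% higher and 4.98% lower, and 10.9% and 9.14% without Empty 1. The alternatives were RLE factors, library totals, 2 filters, DESeq2, limma-voom, a replicate block and single libraries left out, with Empty 2 and 3 left out together and offsets for gene span or for exon length and GC added later. The test was checked on simulated counts with 200 changed genes. It recovered 32% of 1.25-fold and 67.3% of 1.5-fold changes, so a small change can fail to pass. Of 150 calls there, 9 were false. Versions were edgeR 4.0.16, DESeq2 1.42.0 and limma 3.58.1 under R 4.3.3, with Python 3.11.15 and matplotlib 3.10.9.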

Additional observations from a re-analysis of the deposited data

How the results depend on the processing

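Over all genes 1151 were higher and 807 lower. These counts were 904 and 1272 with library totals only (41.5% higher in place of 58.8%), 467 and 194 at an adjusted p below 0.01, and 209 and 40 with Empty 2 and 3 left out together; single libraries left out gave 474 to 1792 higher and 184 to 1499 lower. The 7 lists of the MLX branch, cofactors, turnover and targets had 5 to 56 tested genes each. Together they held 6 higher and 13 lower genes, beside 7.11% and 4.98% of all genes. With library totals only they held 3 and 20, beside 904 and 1272 over all genes. With single libraries left out they held 1 to 6 and 6 to 26, beside 474 to 1792 and 184 to 1499 over all genes. The cause of these differences was not tested. The labels do not say whether same-numbered libraries were paired. Deviations of same-numbered libraries from their group means correlated at −0.138, 0.0685 and −0.142. Over all pairs of an Empty and a sgZHX3-3 library the correlations ran from −0.149 to 0.233. With the number as a replicate block 516 genes were higher and 239 lower, the lists held 1 and 7, MXD1 was at −0.31 (adjusted p = 0.0921), MGA was at 0.0034 and MYCN and MXI1 passed (0.0260 and 0.0385). With Empty 2 and 3 left out MYC was at 0.0553, MYCN at 0.34, MXD1 at −0.0941 and MXI1 at −0.57. In that fit MXD4 was at −0.32, MNT at 0.0298 and MGA at 0.255. There MYCL was at 0.14, MAX at −0.12 and MXD3 at 0.0712. With single libraries left out MYC ranged from −0.61 to −0.27, MYCN from 0.39 to 0.47, MXD1 from −0.41 to −0.24, MXI1 from −0.50 to −0.41, MNT from −0.0557 to 0.0033 and MGA from −0.12 to 0.0748. MNT was at 0.0039 with the offset for gene span and MGA at 0.0017 with limma-voom. MAX, MYCL, MXD3 and MXD4 kept their sign and did not pass in any of the 16 alternatives. With the longest transcript as length the mean level per kilobase was 18.0 for MAX, 9.90 for MGA, 9.44 for MXD4, 6.93 for MNT, 5.43 for MXD3, 2.64 for MYC, 2.29 for MXI1 and 1.99 for MYCL, and MAX was then above MXD1 (14.9), and MXD4 and MNT above MYCN (6.40).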
